A study of Homo sapiens with 6 samples.

Results

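The genes described here encode the interleukins, the CC and CXC chemokines and the receptors of both. A gene belonged to the group if its symbol began with CCL, CXCL, CCR or CXCR and a number, or with IL and a number, and was neither an antisense gene nor a pseudogene. This gave 144 of the 26364 genes in the table, of which 83 encode ligands, 57 encode receptors or receptor chains, 3 encode antagonists or binding proteins and 1, IL4I1, encodes an enzyme. Membership rested on names alone and on no measured value. RNA was sequenced from MV4-11, an established human acute myeloid leukaemia line with an internal tandem duplication in the receptor tyrosine kinase FLT3. Cells received 22d, known as an inhibitor of the deacetylase HDAC8, at 10 nM, or the vehicle DMSO, for 18 hours in both cases, and each group had 3 libraries. All 6 libraries came from this single line. The labels do not say whether replicates were separate cultures, so each p-value measures only how far these libraries spread, and that spread may be technical.

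Interleukins and chemokines are small secreted proteins through which leukocytes instruct one another. Chemokines guide migration through seven-pass receptors coupled to inhibitory G proteins. Most interleukins bind paired receptor chains that carry JAK kinases and activate STAT transcription factors, whereas the IL-1 and IL-18 receptors signal through MYD88 and IRAK kinases. Myeloid cells both make and answer to many of them, and monocytes in particular carry CCR2, CCR1 and the IL-6, IL-10 and IL-17 receptor chains.

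Under 22d, 24 of the 49 member genes with enough reads to test changed, 14 of them higher and 10 lower. The ligand CXCL16 and the receptors CCR7, IL21R and IL11RA rose most, and the ligands CXCL10 and IL17D and the receptors IL31RA and IL7R fell most. Among ligands, 4 of 14 tested rose (CXCL16, IL18, IL23A and IL16) and 4 fell (CXCL10, IL17D, CCL23 and CCL5). By family, 3 of 7 tested chemokine ligands fell and 1 rose (median log2 change -0.78). Of 7 tested interleukin ligands, 3 rose and 1 fell (median 0.84). Of all tested genes, 28.5% rose and 29.6% fell. Each of these medians is the value of 1 gene, CCL5 for the chemokines and IL17C for the interleukins. IL17C did not pass (limma adjusted p = 0.31) and ran from -0.030 to 1.57 with 1 library left out. Whether the families differ was not tested. Among receptors, 10 of 32 tested rose and 6 fell. IL17RA and IL6R, the receptor genes with most normalized counts before any scaling to gene length, did not pass the test.

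A gene was tested when it had a mean of at least 10 normalized counts, which are reads divided by a size factor per library, and was called at a limma adjusted p under 0.05 over all 13297 genes tested. Of all these genes 58.0% were called, 28.5% higher and 29.6% lower, so the 49.0% of members called lies below the share among all tested genes. Of the 49 members, 13 were both called and at least 2-fold changed, as were 19.8% of all tested genes. The 2 groups of libraries did not overlap for 27 of the 49 tested members and for 65.4% of all tested genes. These 27 included the 24 called genes, IL15RA and IL32. The median log2 fold change was -0.01 over the members and 0.01 over all tested genes. Ligands had a median of 0.01 and receptors of 0.06, while the median size of change without its sign was 1.00 for ligands, 0.53 for receptors and 0.49 for all tested genes. Whether ligands and receptors differ was not tested. Fewer ligands than receptors reached the filter, 14 of 83 against 32 of 57. On the reads recovered from the table, 24 members were called by edgeR's quasi-likelihood test and 24 by DESeq2, against 58.1% and 56.7% of all tested genes. Without the filter on low values, 29 of 99 members were called, against 38.5% of all genes with a read.

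Libraries held between 19995430 and 23749257 reads in genes. Of the 144 members, 45 were listed at 0 in all 6 libraries and 50 more had reads but a mean under 10 normalized counts. The leukaemia antigen IL3RA (the alpha chain of the IL-3 receptor, CD123) and IL9R were listed at 0 in every library. Both lie in the pseudoautosomal regions that the X and Y chromosomes share. Of 26 genes of these regions in the table, 24 were listed at 0 in all 6 libraries, among them CD99, CSF2RA and CRLF2, and the highest value of the other 2 was 3.29 normalized counts. The 0 of IL3RA and IL9R therefore says nothing about their expression. CCL3L1, CCL3L3, CCL4L1 and CCL4L2, near-identical copies of CCL3 and CCL4, were also listed at 0, and reads shared between copies make the values of CCL3 and CCL4 uncertain. Library totals in place of size factors shifted the median log2 change of all tested genes to 0.22, with 5278 higher and 2766 lower calls, against 3784 and 3934. Of the members, 16 were then higher and 10 lower. The library kit named in the labels does not mark strand, so where genes overlap on opposite strands their reads cannot be told apart. Among others, this holds for CXCL16 (beside MED11), IL16 (STARD5), CXCL10 (ART3), IL21R (IL21R-AS1), IL11RA (CCL27) and the pair CCR1 and CCR3. It also holds for IL18BP (NUMA1), IL12RB1 (MAST3) and IL4I1 (ATF5). IL18, CCL5, IL4R, IL17D, CCR6 and IL6ST likewise overlap genes on the opposite strand.

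The myeloid surface gene CD33 averaged 2262 normalized counts under 22d and 2105 under DMSO, and LYZ, the lysozyme of monocytes, 16624 under 22d and 44816 under DMSO. All 9 myeloid markers had reads, although CD14 averaged 2.62 normalized counts under 22d and 8.28 under DMSO. Single markers went both ways: CD68, CSF1R and ITGAM rose (limma adjusted p = 9.8e-06, 0.00013 and 0.0074), LYZ and MPO fell (5.4e-05 and 3.5e-07), and CD33, SPI1 and CEBPA did not pass. CD68 averaged 8358 normalized counts under 22d and 4249 under DMSO, CSF1R 2846 under 22d and 1651 under DMSO, and MPO 65.6 under 22d and 400.0 under DMSO. The sum of all 9, in which LYZ weighs most under DMSO, was 51769 to 62672 normalized counts per library under 22d and 76659 to 97585 under DMSO. The T-cell genes CD3D and CD2, the B-cell gene MS4A1 and the collagen gene COL1A2 were at 0 in all libraries. The 6 T and NK cell markers summed to 1134 to 1190 normalized counts under 22d and 581 to 877 under DMSO. Nearly all of this was NKG7, at 1157 and 708. The 4 B-cell markers summed to 98.6 to 139 under 22d and 129 to 175 under DMSO, and 3 erythroid markers to at most 1.68 and 1.14. The 5 fibroblast or epithelial markers summed to 419 to 548 under 22d and 297 to 360 under DMSO, led by the keratin gene KRT8. The part of these shifts in the results below was not tested. In bulk RNA, fewer cells of a type and less RNA per cell cannot be told apart.

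**Figure D1:**
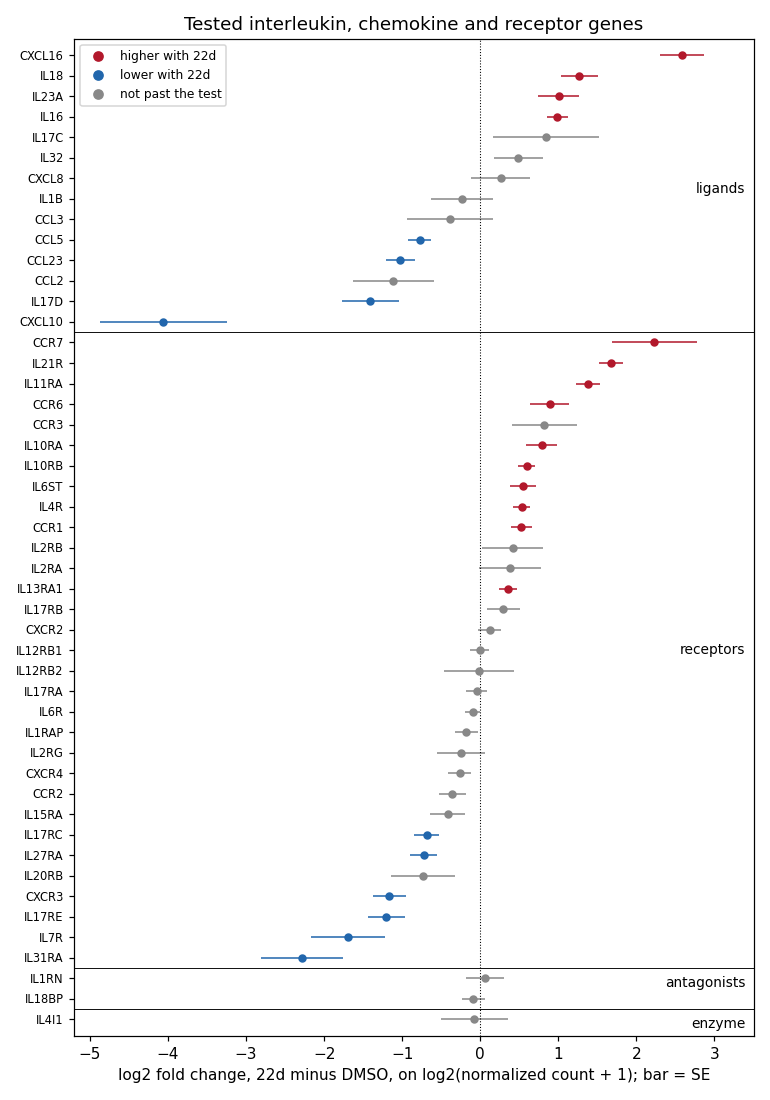
Log2 fold change of 48 of the 49 tested genes on the log2(normalized count + 1) scale, 22d minus DMSO, with bars of 1 SE from limma and genes ordered by role and size of change. Among ligands CXCL16 (2.59) and CXCL10 (-4.06) stand at the ends, and among receptors CCR7 (2.23) and IL31RA (-2.28).

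Promoters of 4 called genes are shown as examples of windows with matches to motifs of the transcription factors that act downstream of cytokines. The called genes IL4R, IL10RB, CCR1, IL27RA and IL6ST held matches too and are not shown. RefSeq promoter windows of 300 bases (250 before and 50 after the transcription start, GRCh38.p14) were at hand for 111 of the 144 members. The motifs searched on both strands were GAAA, any 2 bases and GAAA for interferon-response elements, TTCNNNGAA for STAT factors, GTAAACA for FOXO factors and the NF-kB consensus. Capitals mark matches. No match overlaps another in these windows.
CXCL10: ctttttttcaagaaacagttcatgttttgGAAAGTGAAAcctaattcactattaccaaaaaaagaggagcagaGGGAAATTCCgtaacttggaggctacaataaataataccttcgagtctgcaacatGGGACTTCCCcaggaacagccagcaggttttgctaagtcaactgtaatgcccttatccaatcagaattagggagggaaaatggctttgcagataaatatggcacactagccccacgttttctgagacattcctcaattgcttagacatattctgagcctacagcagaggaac
IL17D: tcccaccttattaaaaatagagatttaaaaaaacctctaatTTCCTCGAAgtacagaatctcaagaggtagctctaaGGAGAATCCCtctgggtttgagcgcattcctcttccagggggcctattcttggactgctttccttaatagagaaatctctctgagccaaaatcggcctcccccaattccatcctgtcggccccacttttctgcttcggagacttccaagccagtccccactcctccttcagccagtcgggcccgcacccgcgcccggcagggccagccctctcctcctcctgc
IL23A: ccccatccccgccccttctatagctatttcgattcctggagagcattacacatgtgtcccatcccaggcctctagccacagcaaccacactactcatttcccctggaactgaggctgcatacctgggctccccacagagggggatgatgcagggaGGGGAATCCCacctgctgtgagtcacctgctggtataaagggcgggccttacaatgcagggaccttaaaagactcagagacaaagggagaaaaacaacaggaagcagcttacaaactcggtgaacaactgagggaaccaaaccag
CCR6: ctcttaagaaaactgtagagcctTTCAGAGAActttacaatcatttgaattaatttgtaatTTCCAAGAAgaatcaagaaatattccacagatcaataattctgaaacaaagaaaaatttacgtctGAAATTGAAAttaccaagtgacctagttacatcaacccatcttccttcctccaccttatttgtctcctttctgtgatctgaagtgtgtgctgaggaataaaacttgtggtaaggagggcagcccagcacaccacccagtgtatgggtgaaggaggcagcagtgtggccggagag
The CXCL10 window (chr4:76023448-76023747, minus strand) holds an interferon-response match from -221 to -212 and NF-kB matches from -177 to -168 and from -122 to -113. The IL17D window (chr13:20702842-20703141, plus strand) holds a STAT match and an NF-kB match. The IL23A window (chr12:56338634-56338933, plus strand) holds an NF-kB match from -95 to -86. The CCR6 window (chr6:167111545-167111844, plus strand) holds an interferon-response match from -124 to -115 and 2 STAT matches. The interferon-response motif thus occurs both in a gene that fell, CXCL10, and in one that rose, CCR6. Over the 111 member promoters, 7.21% held the interferon-response motif, 15.3% the STAT motif, 2.7% the FOXO motif and 22.5% the NF-kB consensus. Among all 34943 promoter windows of the same length the shares were 3.57%, 7.66%, 3.42% and 11.3%. These windows were kept by position and could include several of the same gene, whereas each member gave 1 window. The shares are therefore not strictly like for like. An NF-kB match was present in 3 of the 11 higher and 3 of the 8 lower members with a window, and a STAT match in 3 and 1. Of the 20 tested members with a window that did not pass, 3 held an NF-kB match and 2 a STAT match. A match describes letters only, not a bound site.

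CXCL16, a chemokine made both as a membrane-bound and as a soluble form and the ligand of CXCR6, had the largest rise among ligands. Its gene (chromosome 17, 4733526 to 4739922, minus strand, GENCODE 29 on GRCh38) held 114, 78.5 and 136 normalized counts under 22d, against 13.7, 21.7 and 16.5 under DMSO. Every 22d library lay far above every DMSO library, and the means differed 6.34-fold. The log2 fold change on the log2(value + 1) scale was 2.59 (SE 0.28, limma adjusted p = 6.5e-06). CXCR6, its receptor, had at most 4 reads in any library and was not tested. IL18, a cytokine of the IL-1 family that caspase-1 cuts into its active form, held 191, 183 and 175 normalized counts under 22d, against 68.3, 54.8 and 114 under DMSO. The 22d libraries were close together and all above DMSO, with a log2 change of 1.27 (SE 0.24, limma adjusted p = 0.00052). Both chains of its receptor, IL18R1 and IL18RAP, were listed at 0. Its soluble inhibitor gene IL18BP had 299, 331 and 399 normalized counts under 22d and 393, 324 and 374 under DMSO and did not pass (adjusted p = 0.62). CASP1, the gene of caspase-1, rose by 0.46 (limma adjusted p = 0.015), a call lost without 22d replicate 2 (adjusted p = 0.068) and without DMSO replicate 2 (0.055).

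IL16, which encodes a chemoattractant that acts through CD4, was the most read ligand gene. It had 1367, 978 and 1144 normalized counts under 22d and 567, 557 and 622 under DMSO, a log2 change of 0.99 (SE 0.13, limma adjusted p = 4.1e-05). All 22d libraries lay above all DMSO libraries. IL23A encodes the p19 subunit that joins the IL12B product to form IL-23. It held 71.4, 47.5 and 54.6 normalized counts under 22d, against 28.4, 33.1 and 23.0 under DMSO, again without overlap (log2 fold change 1.00, SE 0.27, limma adjusted p = 0.0056). The partner subunit gene IL12B had 4, 10 and 4 reads under 22d and 6, 8 and 0 under DMSO. IL12A, which pairs with IL12B to form IL-12, had 0 reads in each 22d library and 4, 4 and 6 reads under DMSO. With a floor of 3 reads in place of the 0 of the 22d group, IL12A was 5.59-fold lower under 22d. That value takes the few DMSO reads as exact, so it is no firm minimum. In the authors' deposited table IL12A had a log2 fold change of -1.50 and an adjusted p of 0.017. That log2 fold change is a different measure from the floor-based ratio, so their sizes are not compared.

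CXCL10, an interferon-induced chemokine and ligand of CXCR3, showed the largest fall. The gene (chromosome 4, 76021117 to 76023497, minus strand) had 0, 13 and 1 reads under 22d, against 70, 70 and 16 under DMSO. The groups did not overlap, but the 13 reads of 22d replicate 2 and the 16 of DMSO replicate 3 were close. Its log2 fold change was -4.06 (SE 0.82, limma adjusted p = 0.00088), and -3.30 without 22d replicate 1, -5.14 without 22d replicate 2 and -2.74 with a pseudocount of 5. The means differed 13.4-fold, and the gene passed in each of 14 alternatives here, DESeq2 on the recovered reads among them. In the authors' deposited table CXCL10 did not pass, with a log2 fold change of -1.20 and an adjusted p of 0.065. Why the deposited change is smaller was not tested. CXCL11, another interferon-induced ligand of CXCR3, had 0 reads in each 22d library and 3, 0 and 2 reads under DMSO.

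CCL5, a chemokine that attracts T cells and monocytes through receptors that include CCR1 and CCR3, held 195, 225 and 235 normalized counts under 22d, against 429, 360 and 336 under DMSO. CCL23, a ligand of CCR1, held 70.4, 67.5 and 54.6 normalized counts under 22d and 138, 127 and 127 under DMSO. In both genes every 22d library lay below every DMSO library. CCL5 fell by 0.78 in log2 units (SE 0.15, limma adjusted p = 0.00062) and CCL23 by 1.02 (SE 0.19, limma adjusted p = 0.00047). IL17D, a member of the IL-17 family, had 13.7, 42.9 and 42.8 normalized counts under 22d, against 86.5, 71.4 and 82.3 under DMSO. It fell by 1.41 (SE 0.37, limma adjusted p = 0.0051), 22d replicate 1 being the lowest, and by 0.88 without that library (adjusted p = 0.0053).

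**Figure D2:**
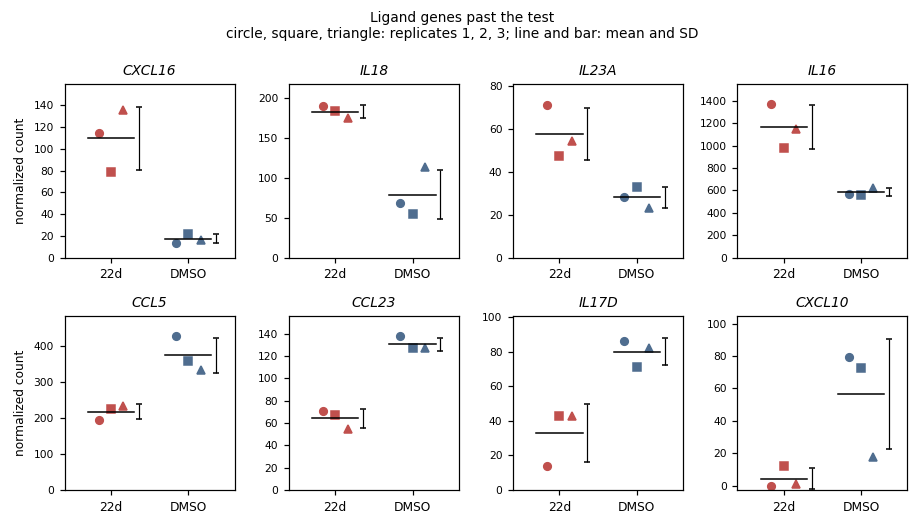
Normalized counts (y axis, linear) of the 8 ligand genes past the test in the 3 libraries under 22d (left) and the 3 under DMSO (right), with mean and SD. The groups do not overlap in any panel, and in CXCL10 the highest 22d library (11.9) and the lowest DMSO library (17.6) are closest.

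The other 6 tested ligands, IL1B, CXCL8, CCL2, CCL3, IL32 and IL17C, did not pass. IL1B, the central inflammatory cytokine of monocytes, held 51.8, 217 and 121 normalized counts under 22d and 122, 188 and 97.6 under DMSO. CXCL8, the neutrophil attractant, held 62.6, 224 and 78.1 normalized counts under 22d and 75.1, 115 and 73.5 under DMSO. Libraries of a group differed more than the groups in both. CCL2, the monocyte attractant that binds CCR2, had 6.84, 35.6 and 11.8 normalized counts under 22d and 51.2, 35.2 and 18.6 under DMSO (log2 fold change -1.11, SE 0.52, limma adjusted p = 0.081). Without 22d replicate 2 its value was -1.74 and passed (adjusted p = 0.0059), as it did without DMSO replicate 3 (-1.50, adjusted p = 0.039). CCL3, which encodes a ligand of CCR1, had 15.6, 21.9 and 6.72 normalized counts under 22d and 26.2, 31.0 and 6.58 under DMSO. IL32, an inducer of other inflammatory cytokines, had 27.4, 23.7 and 26.9 normalized counts under 22d and 19.3, 13.4 and 23.0 under DMSO, apart but not past the test (adjusted p = 0.20). IL17C, an epithelial cytokine of the IL-17 family, had 7.82, 13.7 and 15.1 normalized counts under 22d and 1.14, 18.6 and 7.68 under DMSO.

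Of the common gamma chain IL2RG and the chains that pair with it, 2 of 7 tested rose and 1 fell. That is 42.9% called, below the 58.0% of all tested genes. IL21R, the receptor of IL-21 (chromosome 16, 27402162 to 27452042, plus strand), had the smallest p-value of all members. It held 593, 540 and 477 normalized counts under 22d, against 189, 179 and 137 under DMSO, so that the lowest 22d library was above the highest DMSO library by more than the spread in either group. That was a log2 change of 1.68 (SE 0.16, limma adjusted p = 2.1e-06). Its ligand gene IL21 was listed at 0. IL4R, which binds IL-4 and also IL-13 when joined to IL13RA1, had 1571, 1770 and 1796 normalized counts under 22d and 1216, 1258 and 1081 under DMSO (log2 fold change 0.53, SE 0.11, limma adjusted p = 0.0011). IL13RA1 had 1044, 1127 and 976 normalized counts under 22d and 858, 757 and 839 under DMSO, a rise of 0.36 (SE 0.11, limma adjusted p = 0.016). Leaving out replicate 2 of either group ended this call (adjusted p = 0.077 without the 22d library, 0.056 without the DMSO library). IL7R, the alpha chain of the IL-7 receptor, fell to 3.91, 17.3 and 5.88 normalized counts under 22d, against 33.0, 25.9 and 21.9 under DMSO (log2 fold change -1.69, SE 0.47, limma adjusted p = 0.0079). It is a low gene with 4 to 19 reads per 22d library. IL7, its ligand gene, had 0 reads in each 22d library and 2, 4 and 0 under DMSO. IL2RG held 161, 214 and 141 normalized counts under 22d and 345, 206 and 114 under DMSO and did not pass (adjusted p = 0.51), nor did IL2RA, IL2RB and IL15RA (adjusted p = 0.42, 0.38 and 0.13). IL2RG passed without DMSO replicate 3 (limma adjusted p = 0.039) and IL15RA under quantile normalization (0.017).

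Of IL6ST, the gene of the signal transducer gp130, and 3 chains that share it, 2 of 4 rose and 1 fell. In this short list 75.0% were thus called, against 58.0% of all tested genes. IL11RA, the receptor of IL-11, held 364, 320 and 436 normalized counts under 22d, against 140, 148 and 137 under DMSO. DMSO libraries were nearly equal and every 22d library was more than 2-fold above them (log2 fold change 1.38, SE 0.15, limma adjusted p = 8.4e-06). IL11RA also overlaps GALT on the same strand. IL11 itself had 14, 9 and 22 reads under 22d and 5, 1 and 0 under DMSO and lay under the filter. In the authors' deposited table IL11 had a log2 fold change of 1.55 and an adjusted p of 0.014. IL6ST itself had 196, 214 and 160 normalized counts under 22d and 140, 124 and 124 under DMSO, a rise of 0.54 (SE 0.17, limma adjusted p = 0.014). It no longer passed without 22d replicate 2 (adjusted p = 0.072) or under quantile normalization (0.066). IL27RA, which joins gp130 to bind IL-27, had 151, 216 and 238 normalized counts under 22d, against 333, 337 and 312 under DMSO. It fell by 0.72 (SE 0.17, limma adjusted p = 0.003). IL6R, the IL-6 binding chain, had 5432, 5091 and 5507 normalized counts under 22d and 5457, 6119 and 5574 under DMSO, overlapping and not past the test (limma adjusted p = 0.42). IL31RA, which pairs with OSMR rather than gp130, had 8, 3 and 10 reads under 22d and 62, 20 and 20 under DMSO. It fell by 2.28 (SE 0.52, limma adjusted p = 0.0022), and by 1.72 without DMSO replicate 1, the library highest in reads (adjusted p = 0.015).

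Both chains of the IL-10 receptor rose. IL10RA, the ligand-binding chain, had 857, 630 and 546 normalized counts under 22d, against 484, 420 and 283 under DMSO (log2 fold change 0.78, SE 0.20, limma adjusted p = 0.0047). IL10RB, a chain shared with receptors for IL-22 and type III interferons, had 1738, 1586 and 1657 under 22d, against 1107, 1152 and 1041 under DMSO (log2 fold change 0.59, SE 0.10, limma adjusted p = 0.00032). The ligand gene IL10 had reads in 1 library only, 22d replicate 3, which held reads in more genes than any other library. Of the 4 tested IL-17 receptor genes, IL17RC and IL17RE fell and IL17RA and IL17RB did not pass. IL17RA, the shared chain and the member with most reads, had 6853, 8785 and 9371 normalized counts under 22d and 8503, 9526 and 7692 under DMSO (limma adjusted p = 0.77). IL17RC, its partner for IL-17A and IL-17F, had 173, 173 and 233 under 22d, against 279, 333 and 316 under DMSO (log2 fold change -0.69, SE 0.16, limma adjusted p = 0.0025). IL17RE, the chain for IL-17C, had 38.1, 62.1 and 66.3 under 22d and 146, 120 and 113 under DMSO (log2 fold change -1.20, SE 0.24, limma adjusted p = 0.00074). IL17RB, which binds IL-25, averaged 83.4 normalized counts under 22d and 67.7 under DMSO (SD 11.5 and 9.72). IL12RB1, the chain shared by the IL-12 and IL-23 receptors, had 1087, 1379 and 1403 normalized counts under 22d and 1328, 1300 and 1240 under DMSO (limma adjusted p = 0.96). IL1RAP, the accessory chain of IL-1 receptors, had 1215, 1496 and 1295 under 22d and 1592, 1185 and 1814 under DMSO and did not pass (adjusted p = 0.32). Without DMSO replicate 2 IL1RAP passed (limma adjusted p = 0.038). Of IL12RB2 and IL20RB, with means between 10.8 and 19.0 normalized counts, neither passed, although IL20RB did under quantile normalization (limma adjusted p = 0.047).

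Of 9 tested chemokine receptors, CCR7, CCR6 and CCR1 rose, CXCR3 fell, and the others, among them CCR2, CXCR4, CXCR2 and CCR3, did not pass. Of these 9 receptors 44.4% were called, below the 58.0% of all tested genes. CCR1, the monocyte receptor of CCL3, CCL5 and CCL23, had 1089, 1447 and 1439 normalized counts under 22d, against 892, 854 and 997 under DMSO (log2 fold change 0.53, SE 0.13, limma adjusted p = 0.004). The receptor thus rose in the same libraries in which its ligand genes CCL5 and CCL23 were lower. CCR6, the receptor of CCL20, had 102, 213 and 186 normalized counts under 22d, against 79.7, 78.6 and 98.7 under DMSO, 22d replicate 1 lying just above DMSO (log2 fold change 0.89, SE 0.25, limma adjusted p = 0.0079). CCL20 had 3, 5 and 4 reads under 22d and 0, 0 and 1 under DMSO. CCR7, the receptor that guides cells to lymph nodes, had 21, 25 and 25 reads under 22d and 8, 4 and 1 under DMSO (log2 fold change 2.23, SE 0.54, limma adjusted p = 0.0033). The value was 1.64 without DMSO replicate 3 (adjusted p = 0.009). CXCR3, the receptor of CXCL9, CXCL10 and CXCL11, had 53.8, 86.7 and 63.8 normalized counts under 22d, against 148, 165 and 140 under DMSO, below in every library (log2 fold change -1.16, SE 0.21, limma adjusted p = 0.00035). CXCR3 and CXCL10, a receptor and its ligand, thus both fell, unlike CCR1 and its ligands.

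CXCR4, which holds leukaemic cells in the marrow by binding CXCL12, had 1998, 1564 and 1465 normalized counts under 22d and 2455, 1876 and 1727 under DMSO (log2 fold change -0.27, SE 0.15, limma adjusted p = 0.14). CCR2, the receptor of CCL2, had 1379, 2076 and 2032 under 22d and 2867, 1899 and 2253 under DMSO (log2 fold change -0.36, SE 0.17, limma adjusted p = 0.089). The groups overlapped in both genes. CXCR4 passed without 22d replicate 1 (adjusted p = 0.026), and CCR2 passed without 22d replicate 2 (adjusted p = 0.049) or without DMSO replicate 2 (0.034). CXCR2, a receptor of CXCL8, had 371, 390 and 326 normalized counts under 22d and 387, 311 and 304 under DMSO, with no clear order. CCR3, an eosinophil receptor, had 16.6, 18.3 and 21.0 normalized counts under 22d and 9.10, 6.21 and 17.6 under DMSO (adjusted p = 0.11). Without DMSO replicate 3 CCR3 passed (limma adjusted p = 0.031).

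**Figure D3:**
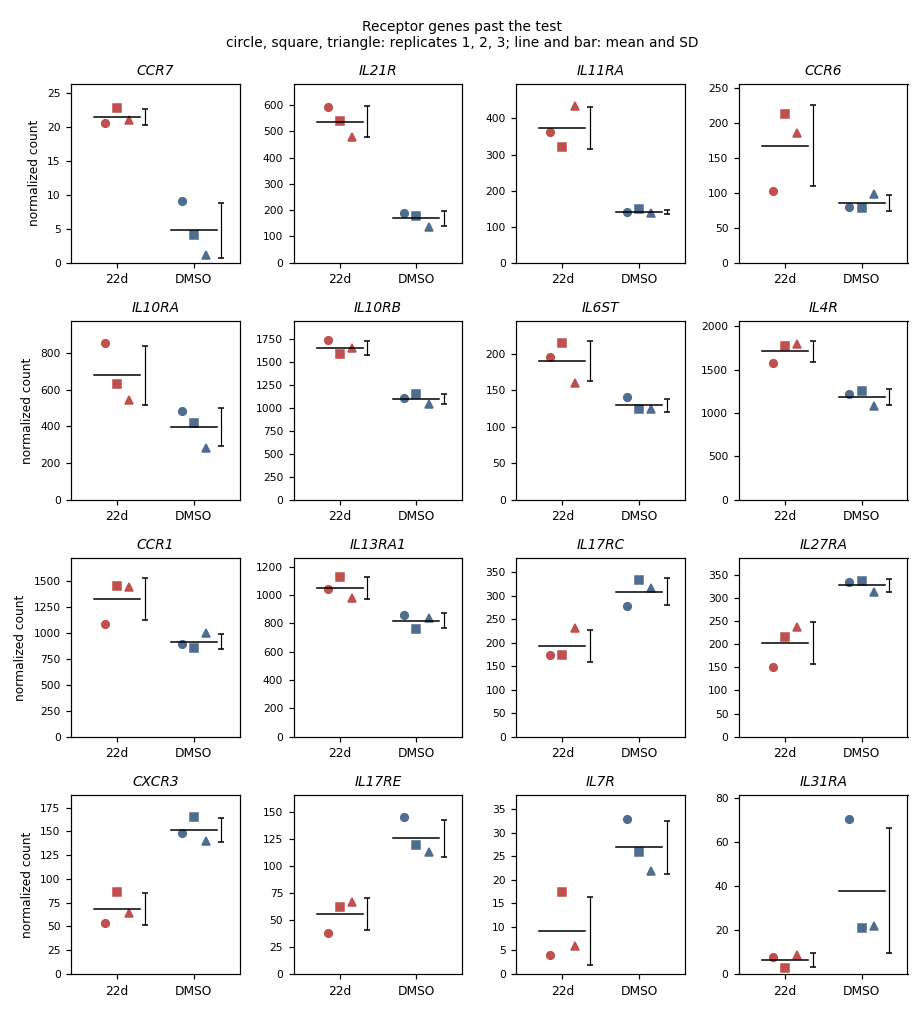
Normalized counts (y axis, linear) of the 16 receptor genes past the test in the 3 libraries under 22d (left) and the 3 under DMSO (right), with mean and SD. IL21R and IL11RA show wide gaps (means of 537 and 373 under 22d, 168 and 142 under DMSO), whereas CCR6 replicate 1 under 22d (102) sits next to DMSO replicate 3 (98.7).

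Of the 50 members with reads but under the filter, 30 had 5 reads or fewer over the 6 libraries together. Several of them, IL10 among them, had reads in 22d replicate 3 only. That library held reads in 19285 genes, and each other library in 16268 to 17055. Only CXCL14, CCR10, IL11 and CCL4 reached 10 normalized counts in any library. CXCL14, a chemokine of epithelial tissues, had 2, 1 and 7 reads under 22d and 27, 13 and 3 under DMSO, with overlap. In the authors' deposited table it had a log2 fold change of -1.48 and an adjusted p of 0.019. CCR10, the receptor of CCL27 and CCL28, had 19, 10 and 9 reads under 22d and 3, 5 and 4 under DMSO. CCL4, a chemokine of macrophages, had 0, 4 and 2 reads under 22d and 6, 18 and 2 under DMSO. An adjusted p under 0.05 was given to 26 members in the authors' deposited table. These were 23 of the 24 genes called here, with the same sign, and IL11, IL12A and CXCL14. The exception was CXCL10.

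Levels were compared between genes per kilobase of exon, from GENCODE 29. With 22d the highest means were those of IL4I1 (1102 normalized counts per kb), IL17RA (968), IL6R (887), IL10RB (846) and CXCR4 (832). With DMSO they were IL4I1 (1236), CXCR4 (1002), IL17RA (996), IL6R (949) and CCR2 (643). Under 22d the ranges of IL4I1, IL17RA, IL6R, IL10RB and CXCR4 all overlapped, so their order is not firm. Under DMSO the same holds for IL4I1, CXCR4, IL17RA and IL6R, and IL4I1 also overlapped CCR2. The highest ligands were IL18 (157 normalized counts per kb) and CCL5 (152) under 22d, and CCL5 (262) and CCL23 (209) under DMSO. IL18 stood at 67.7 per kb under DMSO. The ranges of IL18 and CCL5 overlapped under 22d. Receptor transcripts filled the upper part of the order in both groups.

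**Figure D4:**
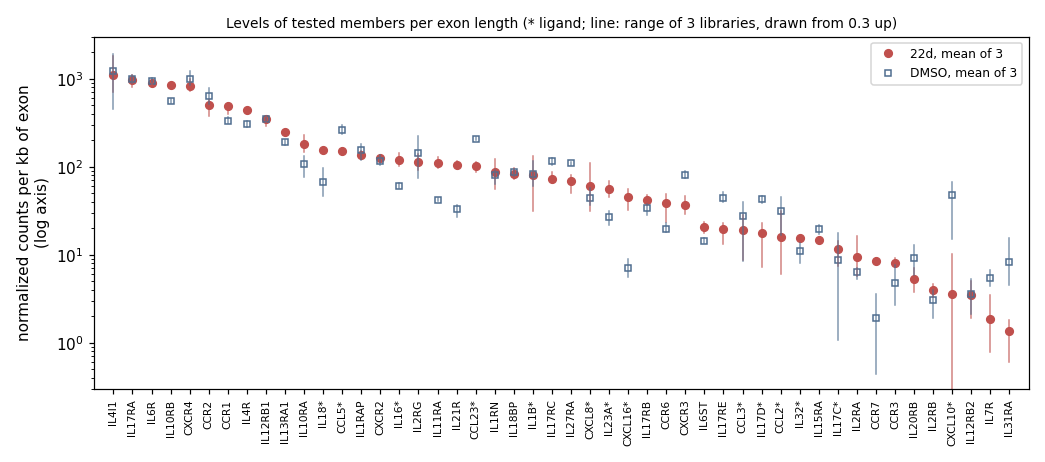
Normalized counts per kb of exon (y axis, log scale) of 48 of the 49 tested members, ordered by their mean under 22d, with means as points and the range of 3 libraries as lines. CXCL16 and CXCL10 show the largest gaps between groups among ligands (45.1 and 3.60 per kb under 22d, 7.12 and 48.1 under DMSO).

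IL4I1, which encodes a secreted L-amino acid oxidase and is no cytokine despite its name, had 1996, 4674 and 1804 normalized counts under 22d and 3429, 4910 and 1168 under DMSO. Libraries of each group differed several-fold, and the gene did not pass (limma adjusted p = 0.89). It overlaps NUP62 on the same strand. IL1RN, the IL-1 receptor antagonist, had 130, 283 and 196 normalized counts under 22d and 148, 213 and 202 under DMSO. IL4I1, IL1B, IL1RN, CXCL8 and CCL3 were each highest in replicate 2 of both groups, a pattern noticed after their values were seen. In all, 8 of 49 tested members (16.3%) had this pattern, the others being CXCR3, IL15RA and IL2RB, against 8.53% of all tested genes. The labels do not say that a number marks a shared culture or day.

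**Figure D5:**
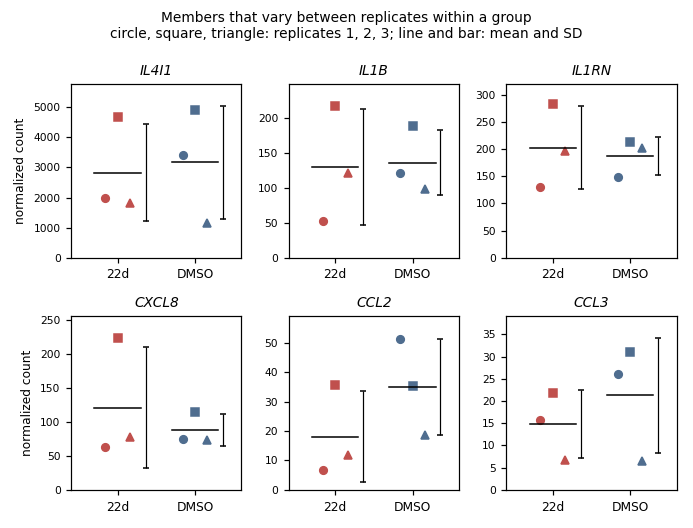
Normalized counts (y axis, linear) of 6 members that vary between libraries of a group, 22d left and DMSO right, with mean and SD. Replicate 2 (square) is highest in both groups for IL4I1, IL1B, IL1RN, CXCL8 and CCL3, and for CCL2 in the 22d group (35.6) but not in DMSO (51.2 in replicate 1).

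Genes of the same pathways outside the name rule were taken from a list of 47 genes in the table, of which 34 were tested. Of these, 13 were higher and 1 was lower under 22d (41.2% called, against 58.0% of all tested genes), with a median log2 change of 0.22 against 0.01 for all tested genes. The split was 21 higher and 0 lower by limma with library totals (22 in either direction at an unadjusted p under 0.05). It was 16 and 2 under quantile normalization, and 9 and 1 without 22d replicate 2. All tested genes gave 5278 higher and 2766 lower calls with library totals. They gave 3944 and 3647 under quantile normalization, and 3306 and 3638 without 22d replicate 2. Of the receptor-bound kinases, JAK2 held 905, 781 and 823 normalized counts under 22d, against 394, 383 and 422 under DMSO, about double in every library (log2 fold change 1.06, SE 0.12, limma adjusted p = 8.6e-06). JAK1 rose by 0.66 (adjusted p = 0.00033) and JAK3 by 0.80 (adjusted p = 0.016), the JAK3 call being lost without 22d replicate 2 (0.063) or DMSO replicate 3 (0.06). TYK2 did not pass (0.13, adjusted p = 0.38), although it did with library totals (0.0097) and under quantile normalization (0.0018). STAT2, STAT3 and STAT5A rose by 1.33, 0.96 and 0.98 (adjusted p = 2.3e-06, 9.9e-06 and 2.1e-05), whereas STAT5B and STAT6 did not pass (adjusted p = 0.14 and 0.40). STAT6 passed with library totals (0.0078) and under quantile normalization (0.0019). STAT2, the interferon-activated factor, had 3338, 2537 and 2516 normalized counts under 22d and 1183, 1117 and 1017 under DMSO. Of the feedback inhibitors SOCS1, SOCS2, SOCS3 and CISH none passed by limma (adjusted p = 0.073, 0.22, 0.14 and 0.19), edgeR or DESeq2, and SOCS1 alone had an unadjusted limma p under 0.05. With library totals SOCS1, SOCS2 and SOCS3 passed (limma adjusted p = 0.014, 0.024 and 0.018), a setting in which the median log2 change of all tested genes was 0.22. SOCS1 also passed without DMSO replicate 1 (0.016) and SOCS3 without 22d replicate 1 (0.016). In the MYD88 path of IL-1 and IL-18, IRAK4, the kinase recruited by MYD88, rose by 0.88 (limma adjusted p = 2.7e-05), with means of 1040 normalized counts under 22d and 563 under DMSO (SD 61.7 and 34.5). IRAK2 and TRAF6 also rose, by 0.95 and 0.43 (adjusted p = 0.037 and 0.016). IRAK2 no longer passed without 22d replicate 2 (adjusted p = 0.13) or DMSO replicate 3 (0.15), nor by DESeq2 (0.054), under quantile normalization (0.14) or with no filter (0.066), and TRAF6 not without DMSO replicate 2 (0.065). The path genes IRAK1, IRAK3 and TOLLIP did not pass, with log2 changes of -0.23, -0.11 and 0.072 (adjusted p = 0.073, 0.35 and 0.63), although TOLLIP did with library totals (0.033) and under quantile normalization (0.0083). SIGIRR, an inhibitory receptor of that path, rose by 0.52 (adjusted p = 0.00072), while MYD88 itself did not pass (adjusted p = 0.95). OSM, a cytokine of the gp130 family, was the gene that fell, by 0.54 (adjusted p = 0.0084), and did not pass with scaling by library totals (-0.32, adjusted p = 0.095).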

How the data were processed

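RNA-seq of MV4-11 cells was used from 1 table of 26364 genes. STAR, HTSeq, DESeq2, cutadapt and FastQC are the tools, and hg38 the build, that appear in the submitters' processing notes. Tool versions, annotation release and strand setting are not given in the sources used here. In the table the authors deposited, per the file headers, a normalized signal for each library, a mean, a log2 fold change and standard error, a test score, and p-values before and after adjustment. The signal is a read count divided by 1 size factor per library. Multiplied back, 100% of values were whole within 0.001 of a read, and 1 read was worth 0.839 to 1.14 normalized counts. No raw counts were used as deposited.

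The comparison of 22d with DMSO used limma-trend on log2(value + 1) with no replicate term. The 13297 genes that averaged 10 normalized counts or more entered, with Benjamini-Hochberg adjustment over all of them at 0.05. The added 1 shrinks the changes of low genes. Members and lists were chosen with earlier results of these data known. Named with values were called members, members averaging 100 normalized counts or more, all tested ligands, untested members with 10 normalized counts in a library and partners of named members. Named partner genes were those called and at least 2-fold changed and the JAK and STAT genes, and all others named were added after their values were seen. Alternatives were other pseudocounts (0.5 and 5), filters (none and a mean of at least 50), quantile normalization, library totals, edgeR's quasi-likelihood test and DESeq2 on the recovered reads, a replicate block and leaving out each library. The fit was also tried on simulated data in which few genes changed and the size factors were known. In the real data 58.0% of tested genes were called, so that trial does not show how the calls hold here. R 4.3.3, limma 3.58.1, edgeR 4.0.16, DESeq2 1.42.0, Python 3.11.15 and matplotlib 3.10.9 were used. Coordinates and exon lengths are from GENCODE 29, which matched 142 of the 144 members. A few genes counted in the totals are not reported here by name.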

Additional observations from a re-analysis of the deposited data

How the results depend on the processing

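Of the 24 called members, 22 passed in each alternative that gave a value, and IL13RA1 and IL6ST were each lost in 2. Of the 25 others, 11 passed in at least 1. The number of called members was 24 by edgeR and 24 by DESeq2, 28 under quantile normalization and 24 to 27 with 1 library left out. Ligand calls were 13 of 49 with no filter and 8 of 14 (57.1%) with it. Of all genes, 38.5% were called with no filter and 58.0% with it. The share called was thus lower without the filter in both. Reads limit the low genes: most libraries hold few reads of CXCL10, IL31RA, IL7R and CCR7.

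With the replicate number as a block there were 25 called members and 7419 called genes, against 24 and 7718. Samples of the same number shared little: the correlation of their deviations across 13297 genes was -0.026, -0.018 and -0.10 for replicates 1, 2 and 3, so the numbers were not taken as pairs. The added member was CCL2 (adjusted p = 0.021).

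Some members that did not pass changed sign, and the cause was not tested. Under quantile normalization, IL6R was at 0.22 (adjusted p = 0.046), IL17RA at 0.28 (0.039), IL4I1 at 0.20, IL12RB1 at 0.13 and IL1RN at -0.071. With library totals, IL1RAP was at 0.041, IL6R at 0.12, IL18BP at 0.13, IL17RA at 0.17, IL4I1 at 0.15, IL12RB2 at 0.19 and IL12RB1 at 0.21. IL12RB1 was at 0.031 by edgeR and 0.0098 by DESeq2. With 1 library left out, log2 fold changes ran from -0.29 to 0.62 for CXCL8, -0.65 to 0.14 for IL2RG, -0.093 to 0.64 for IL2RA, -1.04 to 0.058 for CCL3, -0.030 to 1.57 for IL17C, -0.20 to 0.0047 for IL18BP, -0.22 to 0.34 for IL1RN, -0.14 to 0.087 for IL17RA, -0.68 to 0.36 for IL4I1, -0.72 to 0.31 for IL1B, -0.32 to 0.34 for IL12RB2 and -0.074 to 0.11 for IL12RB1.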

Other observations

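Atypical chemokine receptors, which bind chemokines without signalling through G proteins and remove them from the surroundings, were mostly low. ACKR1 was listed at 0. ACKR2 had 32.3, 41.1 and 41.1 normalized counts under 22d and 22.8, 34.1 and 39.5 under DMSO and did not pass (limma adjusted p = 0.44). ACKR3, a second receptor of CXCL12, had 0, 2 and 4 reads under 22d and 6, 22 and 6 under DMSO, apart but under the filter. CCRL2, which presents chemerin on the cell surface, had 51.8, 66.6 and 63.0 normalized counts under 22d, against 28.4, 27.9 and 47.2 under DMSO. It rose by 0.83 (SE 0.27, limma adjusted p = 0.018), and no longer passed after quantile normalization (adjusted p = 0.078), without 22d replicate 2 (0.064), without 22d replicate 3 (0.054), without DMSO replicate 1 (0.059) and without DMSO replicate 2 (0.065).

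EBI3, the subunit shared by IL-27 and IL-35, varied widely between libraries, with 13.7, 96.7 and 41.1 normalized counts under 22d and 75.1, 102 and 16.5 under DMSO. It was highest in replicate 2 of both groups, as were IL4I1, IL1B, IL1RN, CXCL8 and CCL3, and it did not pass (limma adjusted p = 0.62). These genes were chosen after their values were seen.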
